A study of Homo sapiens with 4 samples.

Results

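The genes described here are the 10 enzymes that make serine and pass a carbon of it into the folate pool, namely PHGDH, PSAT1, PSPH, SHMT1, SHMT2, MTHFD1, MTHFD1L, MTHFD2, MTHFD2L and ALDH1L2. They were selected by their symbols, a list drawn up with earlier results of these data known, and are 10 of the 18917 genes in the deposited RNA-seq counts. All 10 were found under their current symbols, and all 10 passed the filter on low counts. In THUMPD1 KO cells MTHFD2 was 25.1% and PSPH 25.6% more abundant than in WT cells, MTHFD1 fell by 12.3%, and the other 7 did not pass the test. Among all tested genes 20.9% passed. The MTHFD1 call was kept in only 4 of 11 alternative analyses and that of PSPH in 8, against 11 for MTHFD2.

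The counts come from 2 WT and 2 THUMPD1 KO libraries of HEK-293T, an immortalized human embryonic kidney line that carries adenoviral and SV40 transforming genes. The sample labels call the line HEK293. Both genotypes were grown in the same DMEM with serum and glutamine, with no other treatment. THUMPD1 is the RNA-binding partner of the acetyltransferase NAT10, and together they place N4-acetylcytidine on leucine and serine tRNAs. The study's methods describe KO cells made with Cas9 and a pair of guides, sorted as GFP-positive cells and then as single cells, so that the clone and the genotype cannot be told apart. The labels do not say that the 2 libraries of a genotype were separate cultures, so p-values measure only the spread between these libraries, which may be technical.

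As a check of the labels, THUMPD1 was counted 356 and 468 times in the WT libraries and 71 and 58 times in the KO libraries. Its level was 44.5 ± 2.72 CPM (read counts relative to scaled library size, SD, n = 2) in WT and 5.79 ± 0.486 CPM in KO. The libraries held 7875722 to 11362363 counts, so that a count of 3, taken as the floor, was worth 0.259 to 0.391 CPM. Replicates differed by more than sampling noise, with a chi-square per degree of freedom of 4.18 in WT and 7.19 in KO, and each library was kept as its own replicate. All 5 HEK-293 markers looked at (PAX2, LHX1, EYA1, NEFM and NEFL) were detected in every library, although not at equal levels in the 2 genotypes. The neurofilament gene NEFM was lower in KO (log2 fold change -2.87, adjusted p = 4.1e-18), while NEFL (0.34, adjusted p = 0.0090) and LHX1 (2.12, adjusted p = 0.0138, with 6 counts in each WT library) were higher, and PAX2 and EYA1 were not called. The NEFL call was lost without KO replicate 2 (0.28, adjusted p = 0.0887) and that of LHX1 without WT replicate 2 (1.86, adjusted p = 0.0577). Of 6 markers of other cell types, PTPRC, CD3E, ALB, PECAM1 and HBB had at most 5 counts in any library, and only COL1A1 was present, at 18.5 to 25.3 CPM. Across the 13128 genes tested, 2748 had an adjusted p under 0.05 (quasi-likelihood test of edgeR, Benjamini-Hochberg adjustment), which is 20.9%. The median tested gene had a log2 fold change of 0.01.

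Cells make serine from a glycolytic intermediate in a short pathway. PHGDH oxidizes phosphoglycerate, PSAT1 transfers an amino group to the product, and PSPH removes the phosphate. The serine hydroxymethyltransferases, SHMT1 in the cytosol and SHMT2 mainly in mitochondria, then split serine into glycine and a methylene group bound to tetrahydrofolate. In mitochondria MTHFD2 or its paralog MTHFD2L oxidizes that group, and MTHFD1L releases it as formate, or ALDH1L2 oxidizes it to CO2 while making NADPH. In the cytosol MTHFD1, which joins 3 enzyme activities in a single protein, takes up the formate for purine and thymidylate synthesis. Proliferating cultured cells usually run this cycle from mitochondria to cytosol. Several of these genes are known targets of ATF4, the transcription factor of the amino acid response.

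As a description only, promoters of the members, called or not, were read where the table of RefSeq promoters held them. The table (GRCh38.p14, 250 bases before each annotated start and 50 after) held 11 windows for 7 members and none for PSPH, SHMT2 or ALDH1L2. MTHFD2, the member with the smallest adjusted p, and MTHFD1, the member called lower, are shown over the 250 bases before their start, both on the plus strand, at chr2:74198365-74198614 and chr14:64388103-64388352. Capitals mark an E-box, CACGTG, the motif bound by MYC.
MTHFD2: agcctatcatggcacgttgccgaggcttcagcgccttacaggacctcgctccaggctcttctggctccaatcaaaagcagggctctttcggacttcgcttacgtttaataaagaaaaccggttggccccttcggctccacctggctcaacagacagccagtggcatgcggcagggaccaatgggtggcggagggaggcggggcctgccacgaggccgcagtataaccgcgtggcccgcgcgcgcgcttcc
MTHFD1: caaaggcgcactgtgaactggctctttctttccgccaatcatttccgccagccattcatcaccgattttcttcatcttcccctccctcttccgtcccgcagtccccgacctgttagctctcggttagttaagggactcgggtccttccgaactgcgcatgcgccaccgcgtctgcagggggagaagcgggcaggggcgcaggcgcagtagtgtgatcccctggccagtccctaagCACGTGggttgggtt

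A pair of motifs was searched in these windows, on both strands. The first was TGATGNAA, where N is any base, the core shared by sites of ATF4 with its C/EBP partners, and the second was the E-box. The core was present in 1270 of the 35116 human promoters in the table (3.62%) and the E-box in 2548 (7.26%). Among the members the core was found in MTHFD1L alone, in 3 of its 4 windows and at a single place, 129 bases before one annotated start and downstream of another. That stretch is shown at chr6:150866346-150866375 on the plus strand, with the core in capitals.
MTHFD1L: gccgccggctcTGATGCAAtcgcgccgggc
The E-box was found in MTHFD1L and MTHFD1, in the latter 15 bases before the start. The MTHFD2 window held neither string. Of the members with a match, MTHFD1 was called lower and MTHFD1L was not called, with log2 fold changes of -0.19 and -0.09. A match is a string of letters and not a bound site, and the absence of one says only that these letters are not in this window.

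**Figure D1:**
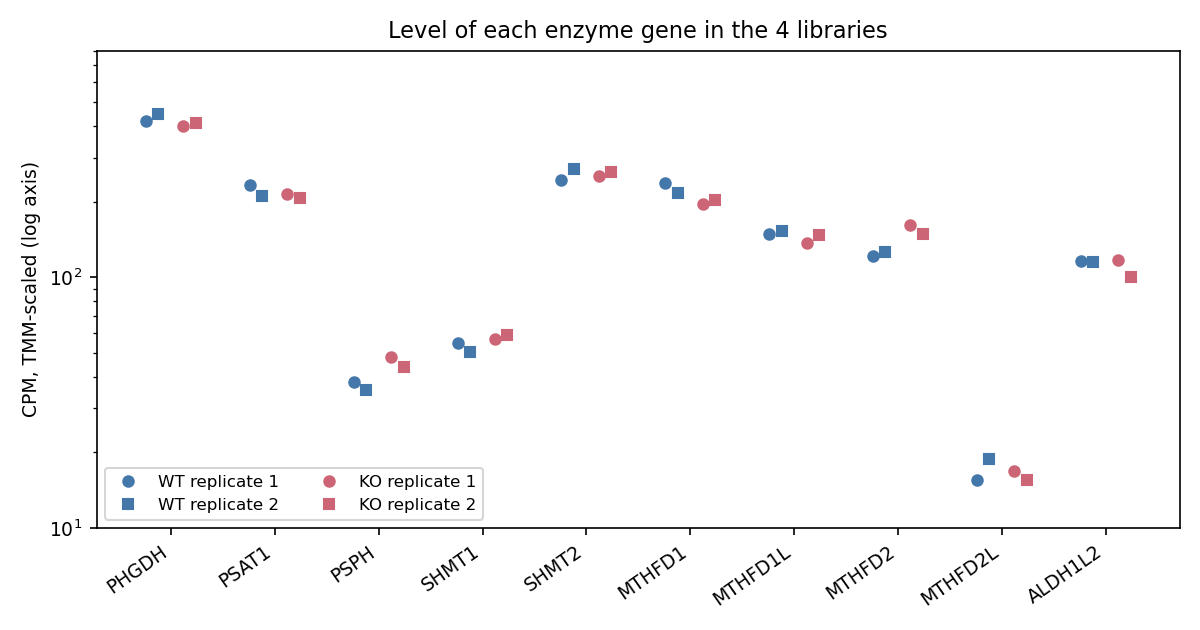
Level of each of the 10 enzyme genes in the 4 libraries, in TMM-scaled CPM on a log axis, with WT in blue, KO in red, replicate 1 as circles and replicate 2 as squares. PHGDH was highest, at 402 to 447 CPM, and MTHFD2L lowest, at 15.5 to 18.8 CPM. Both KO libraries lay above both WT libraries for 3 genes and below them for 3. Over all tested genes these shares were 30.4% and 30.0%.

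To compare genes with each other, CPM were divided by the length in kb of the canonical transcript in GENCODE 44. On this per-kb scale PHGDH led in WT cells at 232 ± 9.71 CPM per kb (SD, n = 2). SHMT2 followed at 119 ± 8.46 and PSAT1 at 101 ± 7.34 CPM per kb. MTHFD1 stood at 72.0 ± 4.51, MTHFD1L at 43.7 ± 0.988 and MTHFD2 at 28.1 ± 0.717 CPM per kb. SHMT1 (20.7 ± 1.26), PSPH (18.6 ± 0.929), ALDH1L2 (15.5 ± 0.0854) and MTHFD2L (7.29 ± 0.996) closed the order. PHGDH, SHMT2 and PSAT1 thus held the upper places, and the mitochondrial SHMT2 exceeded the cytosolic SHMT1 in every library. In KO cells the order was the same except that PSPH (23.3 ± 1.52 CPM per kb) and SHMT1 (22.9 ± 0.620 CPM per kb) changed places, and their KO libraries overlapped. For all other neighbours in the order the libraries did not overlap in either genotype, although SHMT1 and PSPH in WT differed by less than the sum of their SDs. Each enzyme has a single canonical length here, and which isoforms the cells used was not tested.

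Whether loss of THUMPD1 was accompanied by a change in these transcripts was asked by comparing KO with WT. Of the 10 members, 2 were called higher and 1 was called lower at an adjusted p under 0.05 over all genes tested. Among all tested genes 8.79% were called higher and 12.1% lower, so the members' counts stood near the background. That split of all calls, 1154 higher and 1594 lower, depended on the scaling and was 2081 higher and 1158 lower with library size alone, 1392 and 1438 with upper quartile, and 1279 and 1349 with limma-voom after quantile normalization. Both KO libraries lay above both WT libraries for 3 members and below them for 3 members, against 30.4% and 30.0% of all tested genes. The median log2 fold change of the members was -0.08, and their median absolute change of 0.0922 was below the 0.207 of all tested genes. Nor were the called members among the large changes in these cells, since 4191 tested genes (31.9%) moved by more than MTHFD2 on the log2 scale, 2012 of them called.

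**Figure D2:**
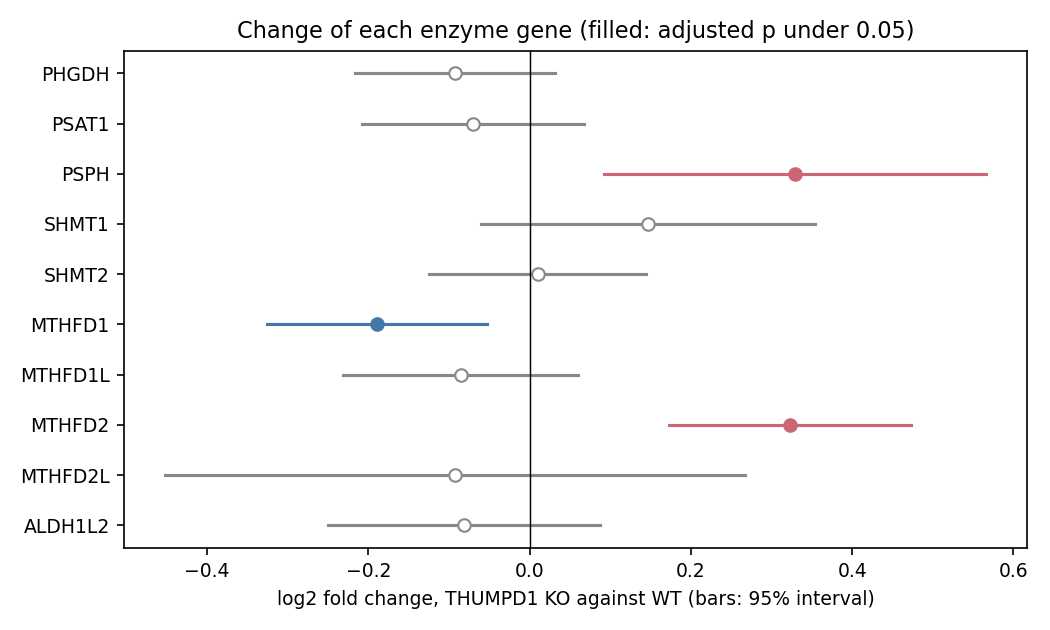
Log2 fold change of each enzyme gene, THUMPD1 KO against WT, from edgeR's quasi-likelihood fit with 2 libraries per genotype. Points are estimates, bars are 95% intervals, and filled points had an adjusted p under 0.05, which were MTHFD2 and PSPH to the right of 0 and MTHFD1 to the left.

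Of the serine synthesis enzymes, PSPH (chromosome 7), which catalyses the last step, was called higher. Its level was 38.1 and 35.5 CPM in the WT libraries and 48.2 and 43.9 CPM in the KO libraries. Both KO libraries were above both WT libraries, with the largest level in KO replicate 1. The log2 fold change was 0.33 (SE 0.12, adjusted p = 0.0424), which is 1.26-fold with a 95% interval of 1.07 to 1.48. The PSPH call stood close to the threshold. It was kept in 8 of the 11 alternative analyses, and it was lost with DESeq2 (adjusted p = 0.152), without WT replicate 2 (log2 fold change 0.28, adjusted p = 0.207) and without KO replicate 1 (0.26, adjusted p = 0.286). PSPH is the member of this pathway with the fewest counts, at 292 to 558 per library, and it has a named pseudogene, PSPHP1, whose reads could be shared with it.

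PHGDH (chromosome 1), which commits the glycolytic intermediate to serine, was the most abundant member and was not called. It measured 421 and 447 CPM in WT and 402 and 412 CPM in KO. The KO libraries lay just below the WT libraries, and the WT libraries differed from each other by more than the nearest WT and KO libraries did. The log2 fold change of PHGDH was -0.09 (SE 0.06, adjusted p = 0.297), with a 95% interval of -13.9% to 2.20%. PSAT1 (chromosome 9), the aminotransferase between PHGDH and PSPH, measured 233 and 210 CPM in WT and 214 and 207 CPM in KO, and the genotypes overlapped. Its log2 fold change was -0.07 (SE 0.07, adjusted p = 0.493), with an interval of -13.4% to 4.75%. The intervals of PHGDH and PSAT1 thus ended below the rise measured for PSPH (25.6%, interval from 6.59%). All 3 intervals rest on the spread between 2 libraries per genotype. PSAT1 has 4 named pseudogenes, and its counts are uncertain to that extent.

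Summed over PHGDH, PSAT1 and PSPH, transcripts of serine synthesis came to 692 and 692 CPM in WT and 664 and 664 CPM in KO, a mean difference of -4.09%. The sum was carried by PHGDH and PSAT1, so that the 1 called gene of the pathway contributed little to it. Between replicates PHGDH and PSAT1 differed in opposite directions in both genotypes. The near-equal sums therefore understate the spread of each gene, and neither gene was called.

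The 2 serine hydroxymethyltransferases were not called. SHMT2 (chromosome 12), the mitochondrial enzyme, measured 244 and 269 CPM in WT and 254 and 263 CPM in KO, with both KO libraries inside the WT range. Its log2 fold change was 0.01 (SE 0.07, adjusted p = 0.935), and the 95% interval ran from -8.26% to 10.5%. SHMT1 (chromosome 17), the cytosolic enzyme, measured 54.6 and 50.1 CPM in WT and 56.8 and 59.0 CPM in KO. Both KO libraries of SHMT1 were above both WT libraries, but the log2 fold change of 0.15 (SE 0.10, adjusted p = 0.326) did not pass the test, with an interval of -4.13% to 27.9%. SHMT1 has 1 named pseudogene, SHMT1P1, and overlaps SMCR8, whose level of 91.7 to 99.0 CPM was above that of SHMT1. SHMT2 overlaps NDUFA4L2, a gene at 0.845 to 2.00 CPM. Both overlaps are on the opposite strand, and whether reads were counted by strand is not stated.

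Of the mitochondrial folate enzymes MTHFD2 (chromosome 2), the dehydrogenase and cyclohydrolase best known from embryonic and tumour cells, was called higher. It was counted 930 and 1382 times in WT and 1864 and 1579 times in KO, which is 121 and 126 CPM against 161 and 148 CPM. Both KO libraries stood clear of the WT libraries, and the gap between genotypes was larger than the gap within either. The log2 fold change was 0.32 (SE 0.07, adjusted p = 0.0021), or 1.25-fold with a 95% interval of 1.13 to 1.39. MTHFD2 was the 1 member called under all 11 alternative analyses, with log2 fold changes of 0.27 to 0.41 and adjusted p from 9.43e-05 to 0.0436, the largest p being that without KO replicate 1. MTHFD2 has 7 named pseudogenes and overlaps SLC4A5 on the opposite strand. SLC4A5 itself stood at 2.22 to 4.32 CPM.

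The paralog MTHFD2L (chromosome 4), which catalyses the same steps, was the least abundant member. It had 119 and 207 counts in WT and 195 and 166 in KO, or 15.5 and 18.8 CPM against 16.8 and 15.6 CPM, and the genotypes overlapped. Its log2 fold change was -0.09 (SE 0.17, adjusted p = 0.756). The interval, -26.9% to 20.4%, was the widest of the 10, and at this depth a change in MTHFD2L of the size seen in MTHFD1 was not detectable.

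MTHFD1L (chromosome 6), the formate-releasing synthetase of mitochondria, measured 148 and 153 CPM in WT and 137 and 147 CPM in KO. The KO libraries lay below the WT libraries, with KO replicate 2 close to WT replicate 1. The log2 fold change of MTHFD1L was -0.09 (SE 0.07, adjusted p = 0.424), with an interval of -14.8% to 4.28%. ALDH1L2 (chromosome 12), which oxidizes formyl-tetrahydrofolate, measured 116 and 115 CPM in WT and 118 and 99.8 CPM in KO. Its WT libraries were nearly equal, whereas KO replicate 2 was low and KO replicate 1 was not. The log2 fold change of ALDH1L2 was -0.08 (SE 0.08, adjusted p = 0.522), with an interval of -15.9% to 6.24%. ALDH1L2 overlaps NOPCHAP1 and WASHC4 on the opposite strand. NOPCHAP1 (counted as C12orf45) stood at 19.1 to 22.0 CPM and WASHC4 (counted as KIAA1033) at 25.2 to 30.6 CPM. Their part in the ALDH1L2 counts was not tested.

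MTHFD1 (chromosome 14), which carries the cytosolic folate steps, was called lower. It measured 237 and 217 CPM in WT and 195 and 203 CPM in KO. Both KO libraries were below both WT libraries, and the difference between the WT libraries exceeded that between the nearest WT and KO libraries. The log2 fold change was -0.19 (SE 0.07, adjusted p = 0.0421), or 0.877-fold with a 95% interval of 0.798 to 0.964. The MTHFD1 call rested on the processing more than the others and was kept in 4 of the 11 alternatives. It was lost with library size alone (log2 fold change -0.11, adjusted p = 0.259), with upper-quartile scaling (-0.16, adjusted p = 0.0765), with limma-voom after quantile normalization (-0.13, adjusted p = 0.158) and with DESeq2 (-0.19, adjusted p = 0.0951). It was also lost without WT replicate 1 (-0.13, adjusted p = 0.265), without KO replicate 1 (-0.16, adjusted p = 0.238) and without KO replicate 2 (-0.21, adjusted p = 0.0679). The sign was the same throughout. MTHFD1 has 1 named pseudogene and overlaps ZBTB25 on the opposite strand, a gene at 11.7 to 14.3 CPM.

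**Figure D3:**
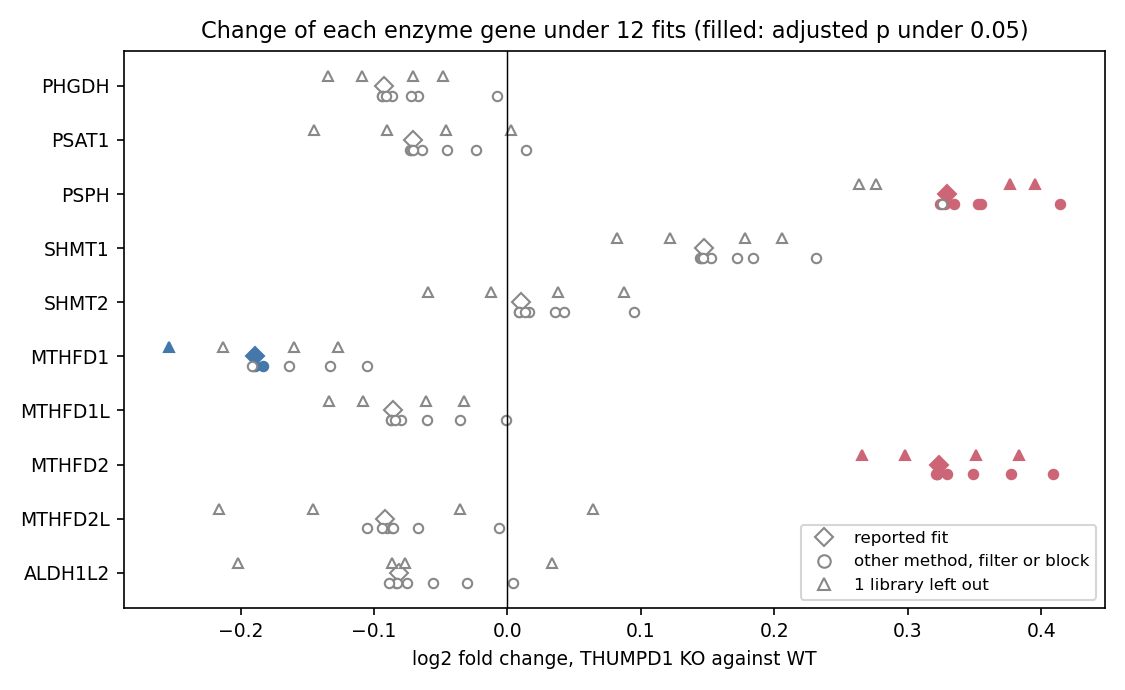
Log2 fold change of each enzyme gene under the reported fit (diamonds), 7 other methods, filters or designs with all libraries (circles) and 4 fits that each left out 1 library (triangles). Filled symbols had an adjusted p under 0.05, which held for MTHFD2 in every fit, for PSPH in 8 of 11 alternatives and for MTHFD1 in 4 of 11.

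Set beside each other by compartment, the cytosolic pair SHMT1 and MTHFD1 summed to 292 and 267 CPM in WT and 252 and 262 CPM in KO, a mean difference of -8.13%. The fall was that of MTHFD1, since SHMT1 was higher in KO (10.7%, not called). The cytosolic sums of the WT libraries differed by more than those of the nearest WT and KO libraries did. The 5 mitochondrial enzymes summed to 644 and 682 CPM in WT and 687 and 674 CPM in KO, a mean difference of 2.63%, and their genotypes overlapped. Over all 10 members the sum was 1635 ± 9.21 CPM (SD, n = 2) in WT and 1601 ± 2.89 CPM in KO, a mean difference of -2.06%. The total of these transcripts thus moved by less than any called member did.

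Ratios between paralogs within a library do not depend on how libraries are scaled to each other. The MTHFD2:MTHFD2L count ratio was 7.82 and 6.68 in WT and 9.56 and 9.51 in KO. Both KO ratios were above both WT ratios, by 1.32-fold on average (log2 difference 0.40), and the exact two-sided permutation test gave p = 0.3333, the smallest that 2 against 2 libraries allow. Per kb of transcript, MTHFD2 exceeded MTHFD2L by 3.57 to 5.11 times. The SHMT2:SHMT1 ratio was 4.46 and 5.37 in WT and 4.48 and 4.46 in KO (log2 difference -0.13, exact permutation p = 1), and without WT replicate 2 the difference was 0.0045. WT replicate 2 therefore set the sign of that difference, while the other 3 libraries lay together. The MTHFD1L:MTHFD1 ratio, mitochondrial over cytosolic, was 0.626 and 0.706 in WT and 0.703 and 0.727 in KO, and the genotypes overlapped (log2 difference 0.11, exact permutation p = 0.667). With Benjamini-Hochberg adjustment over the 3 ratios each p was 1.0, and this design could not have reached 0.05.

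**Figure D4:**
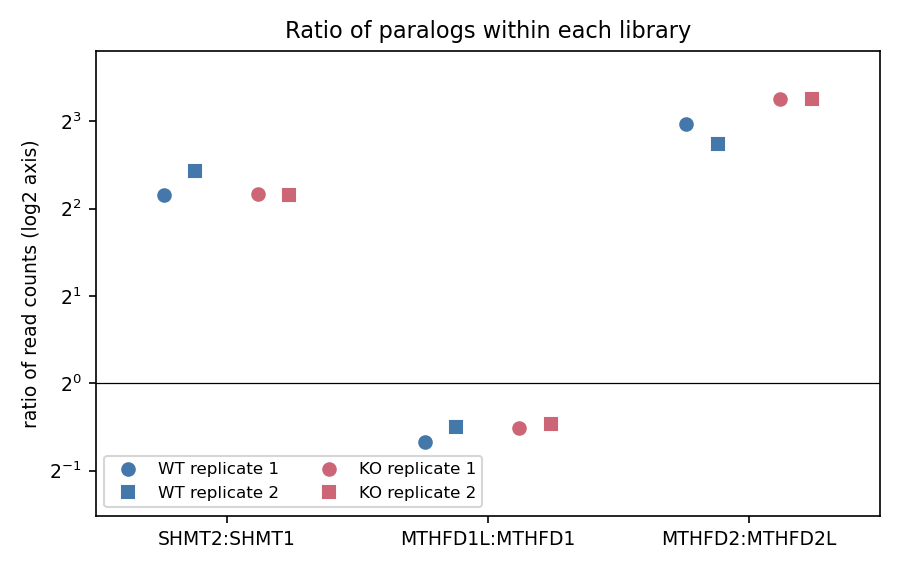
Ratio of read counts of 3 paralog pairs within each library, on a log2 axis, with WT in blue, KO in red, replicate 1 as circles and replicate 2 as squares. Only the MTHFD2:MTHFD2L ratio had both KO libraries (9.56 and 9.51) above both WT libraries (7.82 and 6.68).

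In these KO libraries genes of 2 chromosomes were low as a group, with a median log2 fold change of -0.44 over 573 tested genes of chromosome 16 and of -0.42 over 311 of chromosome 22. No member lies on either. The median over all tested genes of the 9 chromosomes that carry members ranged from -0.06 to 0.10.

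Since leucine and serine tRNAs are the substrates of THUMPD1, the leucine and serine codons of the members were also described. The share of leucine codons that are UUA, UUG, CUA or CUU was 60.6% in MTHFD2, 38.9% in PSPH and 43.8% in MTHFD1. In the members that were not called it ran from 20.0% in PHGDH, 23.5% in SHMT1 and 25.0% in SHMT2 to 67.9% in MTHFD2L. Over 12931 tested genes the median share was 40.9%, with the tenth percentile at 13.2% and the ninetieth at 73.0%, so that all members lay within that range. Called and uncalled members overlapped in this share. Serine codons made up 4.599% of all codons in MTHFD1, 4.89% in PSPH and 5.14% in MTHFD2, and up to 7.30% in PSAT1. All 10 members were below the median of 7.58% over the same genes, and MTHFD1 and PSPH were below the tenth percentile of 5.0%. The counts measure RNA and carry no information on how these codons were translated.

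Beyond the members, 49 other genes of one-carbon metabolism were listed by role, of which 40 passed the filter on low counts. Of these, 3 were called higher, 8 were called lower and 29 were not called, with a median log2 fold change of -0.09, where 8.79% of all tested genes were called higher and 12.1% lower. The split moved with the processing. Scaling by library size alone gave 6 higher and 7 lower, and leaving out WT replicate 2 gave 1 higher and 10 lower.

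Of the 6 tested transporters of serine and glycine, 1 was called higher and 1 lower, against 8.79% and 12.1% of all tested genes. SFXN1, a mitochondrial serine transporter and the one with the largest CPM (not divided by length, as for the other lists), measured 294 and 277 CPM in WT and 317 and 333 CPM in KO (log2 fold change 0.19, SE 0.06, adjusted p = 0.0324). Its call was lost with DESeq2 (adjusted p = 0.0571), without WT replicate 2 (0.15, adjusted p = 0.200) and without KO replicate 2 (0.15, adjusted p = 0.189). SLC1A5, the plasma-membrane carrier of glutamine and other neutral amino acids, fell from 275 and 272 CPM to 220 and 226 CPM (log2 fold change -0.30, SE 0.06, adjusted p = 0.0011).

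In the glycine cleavage system, which breaks glycine down to CO2 and a one-carbon unit, 2 of 4 tested genes were called lower and none higher. Over all tested genes 12.1% were called lower and 8.79% higher. GLDC, its decarboxylase, fell from 56.5 and 61.7 CPM to 33.5 and 35.3 CPM (log2 fold change -0.78, SE 0.11, adjusted p = 9.65e-06). This was a larger change than in any of the 10 members, and the GLDC libraries of the 2 genotypes were far apart. GCSH, the carrier protein of the complex, measured 28.0 and 19.9 CPM in WT and 12.2 and 15.0 CPM in KO (log2 fold change -0.81, SE 0.18, adjusted p = 0.0024). GCSH lies on chromosome 16, whose genes had a median of -0.44, and its part in that shift was not tested. DLD, with the largest CPM of the list, was not called (log2 fold change -0.01, adjusted p = 0.938).

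Of 5 tested genes of folate uptake and storage, 2 were called lower, against 12.1% of all tested genes. SLC19A1, the reduced folate carrier of the plasma membrane, fell from 81.0 and 78.9 CPM to 58.7 and 58.3 CPM (log2 fold change -0.45, SE 0.09, adjusted p = 7.43e-04). SLC25A32, which carries folate into mitochondria, measured 33.4 and 28.0 CPM in WT and 23.6 and 22.5 CPM in KO (log2 fold change -0.40, SE 0.14, adjusted p = 0.0431). The SLC25A32 call was kept in only 4 of 11 alternatives and was lost with library size alone (-0.32, adjusted p = 0.104), upper quartile (adjusted p = 0.0569), limma-voom (adjusted p = 0.0690) and DESeq2 (adjusted p = 0.143). Without WT replicate 1 it was -0.28 (adjusted p = 0.269), without KO replicate 1 it was -0.44 (adjusted p = 0.111) and without KO replicate 2 it was -0.37 (adjusted p = 0.155). The SLC19A1 call was kept in all 11.

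Of the 6 tested genes of folate reduction and use, 1 was called higher and none lower, against 8.79% and 12.1% of all tested genes. TYMS, the thymidylate synthase that consumes methylene-tetrahydrofolate, rose from 59.6 and 59.1 CPM to 91.3 and 90.4 CPM (log2 fold change 0.62, SE 0.09, adjusted p = 1.25e-05). It overlaps ENOSF1 on the opposite strand, at 57.0 and 58.0 CPM in WT and 68.9 and 62.3 CPM in KO. ENOSF1 was not called (0.19, adjusted p = 0.166), and its part in the TYMS counts was not tested.

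**Figure D5:**
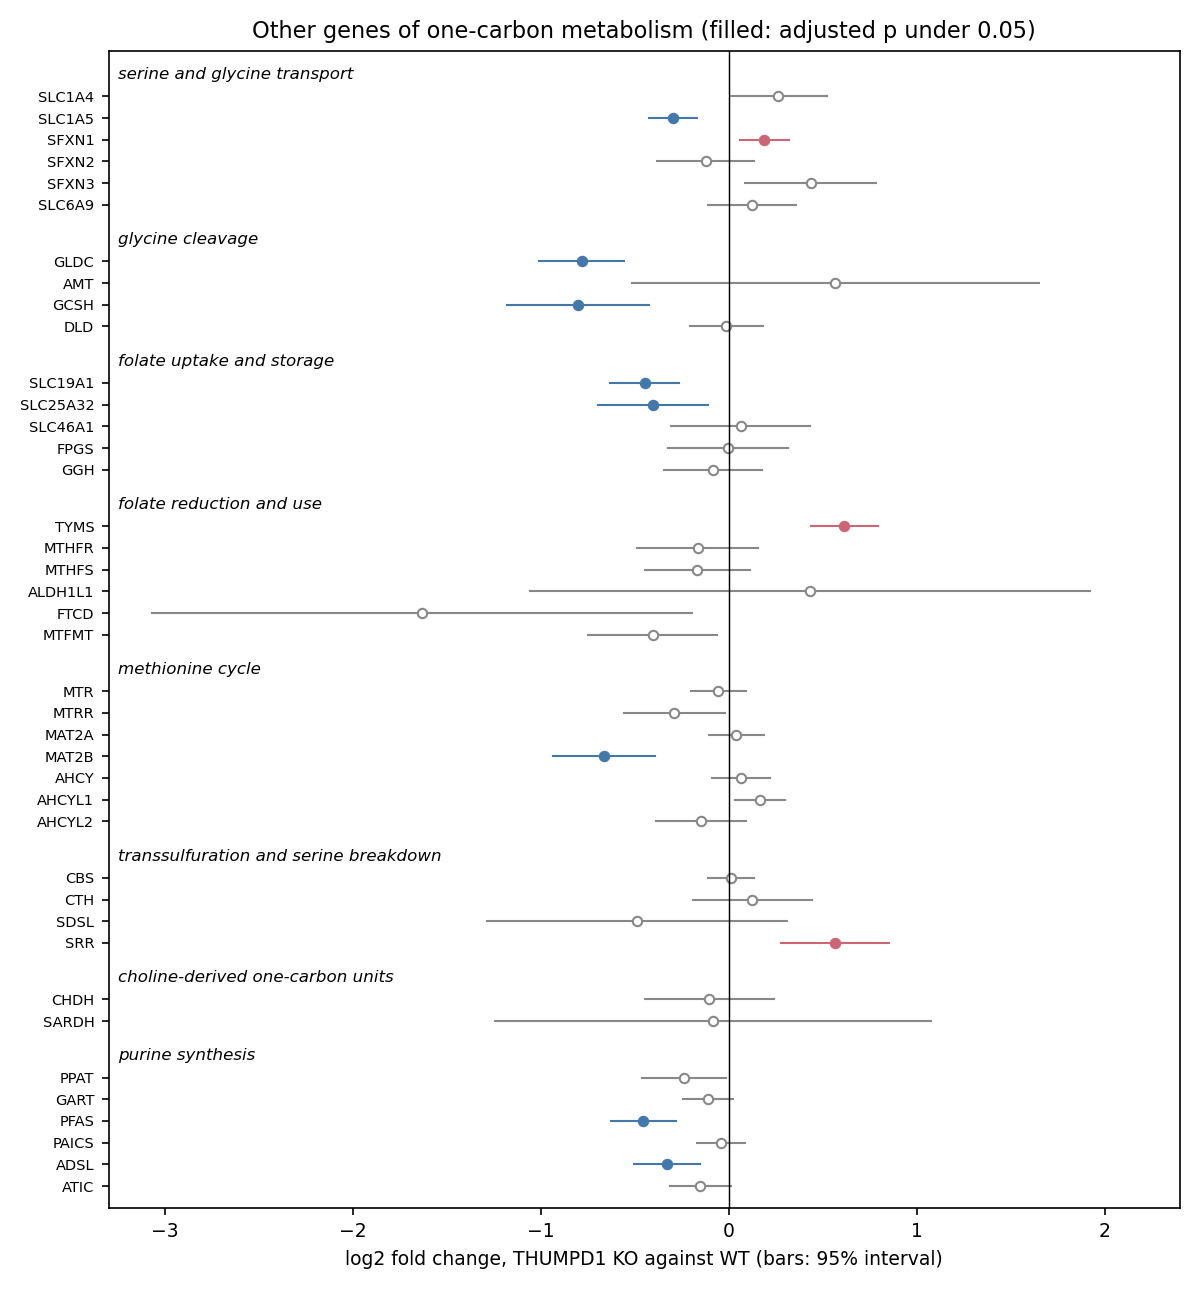
Log2 fold change, THUMPD1 KO against WT, of the 40 tested genes of one-carbon metabolism other than the 10 enzymes, grouped by role, with 95% intervals. Filled points had an adjusted p under 0.05, with SFXN1, TYMS and SRR higher and 8 genes lower, from SLC1A5 at -0.30 to GCSH at -0.81. Among all tested genes 8.79% were called higher and 12.1% lower.

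In the methionine cycle, 1 of 7 tested genes was called, against 20.9% of all tested genes. MAT2B, the regulatory subunit of the S-adenosylmethionine-making enzyme, fell from 47.7 and 49.2 CPM to 25.8 and 35.5 CPM (log2 fold change -0.67, SE 0.13, adjusted p = 6.35e-04). MTR, the folate-dependent methionine synthase and the gene of the list with the largest mean CPM over the 4 libraries, was not called (-0.06, adjusted p = 0.622). Of 4 tested genes of transsulfuration and serine breakdown, SRR, the serine racemase, rose from 27.1 and 22.0 CPM to 33.8 and 38.5 CPM (log2 fold change 0.57, SE 0.14, adjusted p = 0.0045). Without WT replicate 2 the SRR value was 0.41 and no longer passed (adjusted p = 0.0743). CBS, which joins serine to homocysteine, was not called (0.01, adjusted p = 0.919), nor was either tested gene of choline breakdown, of which CHDH had the larger CPM (-0.10, adjusted p = 0.705).

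Of the 6 tested genes of purine synthesis, 2 were called lower, none higher and 4 were not called. Among all tested genes 12.1% were called lower and 8.79% higher. The median log2 fold change of the list was -0.20, and a link of its values to MTHFD1 was not tested. PFAS, an amidotransferase of the pathway, fell from 92.3 and 100 CPM to 70.0 and 70.9 CPM (log2 fold change -0.45, SE 0.08, adjusted p = 3.47e-04). ADSL measured 96.1 and 100 CPM in WT and 73.6 and 83.1 CPM in KO (log2 fold change -0.33, SE 0.09, adjusted p = 0.0066), and lies on chromosome 22, whose genes had a median of -0.42. Without KO replicate 1 the ADSL call was lost (-0.24, adjusted p = 0.133). PAICS, with the largest CPM of the list, was not called (-0.04, adjusted p = 0.688).

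Genes of the amino acid response, of proliferation and of the MYC family were read in the same fit as context. Of 8 genes of the amino acid response, 4 were called higher and 1 lower, and 3 were not called. Among all tested genes, 8.79% were called higher and 12.1% lower. ATF4 itself measured 839 and 835 CPM in WT and 939 and 935 CPM in KO (log2 fold change 0.16, SE 0.06, adjusted p = 0.0416). ATF4 lies on chromosome 22, and its call was lost when any 1 library was left out (adjusted p from 0.0912 to 0.139), although its value then stayed between 0.16 and 0.17. With library size alone ATF4 was at 0.25. Of the other called genes ATF3 (0.64, adjusted p = 8.75e-04) and SESN2 (0.43, adjusted p = 0.0024), both stress-induced, kept their calls under every alternative. CHAC1, which degrades glutathione, had 9 to 69 counts per library (1.15, adjusted p = 0.0451) and ranged from 0.59 without WT replicate 1 (adjusted p = 0.292) to 2.38 without WT replicate 2. The CHAC1 call was also lost without KO replicate 1 (adjusted p = 0.0854) and without KO replicate 2 (adjusted p = 0.128). ATF5 was lower (-0.47, adjusted p = 0.0166), and its call was lost without WT replicate 2 (adjusted p = 0.0806) and without KO replicate 1 (adjusted p = 0.186). With DESeq2 neither the CHAC1 call (adjusted p = 0.120) nor the ATF5 call (adjusted p = 0.0715) was kept, and that of CHAC1 was also lost with limma-voom (adjusted p = 0.0663). The 3 that were not called were TRIB3 (0.12, adjusted p = 0.667), DDIT3 (-0.19, adjusted p = 0.797) and the asparagine synthetase ASNS (0.16, adjusted p = 0.136). Both KO libraries lay above both WT libraries for 6 of the 8 genes and below them for 1. Over all tested genes these shares were 30.4% and 30.0%. The median log2 fold change of the list was 0.16. Its summed level was 1105 and 1129 CPM in WT and 1264 and 1260 CPM in KO, most of it from ATF4.

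Of 11 proliferation genes, 4 were called higher and 2 lower, against 8.79% and 12.1% of all tested genes. The other 5 were not called, with log2 fold changes from -0.16 to -0.03, and the median of the list was -0.08. Both KO libraries lay above both WT libraries for 4 of the 11 genes and below them for 3, against 30.4% and 30.0% of all tested genes. MKI67 (0.73, adjusted p = 2.89e-09), RRM2 (0.48, adjusted p = 2.07e-05), CDK1 (0.37, adjusted p = 0.0143) and TOP2A (0.34, adjusted p = 0.0014) were higher in KO, while the replication helicase subunits MCM5 (-0.42, adjusted p = 1.26e-04) and MCM7 (-0.21, adjusted p = 0.0164) were lower. MCM5 lies on chromosome 22. The CDK1 call was lost without WT replicate 2 (adjusted p = 0.214) and without KO replicate 1 (adjusted p = 0.0683), as was that of MCM7 (adjusted p = 0.101 and 0.154). MYC, which binds the E-box, was lower (-0.20, adjusted p = 0.0350), a call lost without WT replicate 2 (-0.13, adjusted p = 0.284), without KO replicate 1 (adjusted p = 0.150) and without KO replicate 2 (adjusted p = 0.100). With library size alone MCM7 (-0.13, adjusted p = 0.142) and MYC (-0.11, adjusted p = 0.223) were not called, nor were CDK1 (adjusted p = 0.0636) and MYC (adjusted p = 0.0871) with DESeq2, or MYC with upper-quartile scaling (adjusted p = 0.0639) and limma-voom (adjusted p = 0.144). The part of any of these genes in the values of the 10 enzymes was not tested.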

How the data were processed

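RNA was sequenced from 2 WT and 2 THUMPD1 KO HEK-293T libraries, grouped by their titles, made per the labels with a kit that depletes ribosomal RNA. The counts deposited by the authors are whole reads per gene symbol in each library, not normalized. The labels name the build hg19, whereas the study's methods name STAR and RSEM on GRCh38 and an Illumina kit, and the sources do not say which of these produced the counts. The authors' own comparison of KO with WT (log2 fold changes and p-values) was also deposited and was not used. The methods give more samples of this line than the 4 analysed here.

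The main test was the quasi-likelihood F test (glmQLFit, then glmQLFTest) of edgeR 4.0.16 after TMM scaling, run in R 4.3.3 over the 13128 genes that reached 1 CPM in 2 or more libraries. P-values were adjusted over all of these by the Benjamini-Hochberg method, with a threshold of 0.05. CPM use TMM-scaled library sizes, and intervals are 95% intervals from the quasi-likelihood fit. Totals ran from 7875722 to 11362363 counts. Without molecular identifiers, floors allow for counting error alone. limma 3.58.1, DESeq2 1.42.0, other scalings and filters, a replicate block and leaving out each library served as alternatives. Only the main fit was also run on simulated counts, and the outcome is not reported here.

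The members and the gene lists were chosen with earlier results of these data known. Genes are named by a rule: all 10 enzymes, every listed gene with an adjusted p under 0.05, the gene of each list with the largest mean CPM, and THUMPD1. The genes that overlap a member, and the uncalled members of the amino acid response list, were added after their values were seen. Chromosomes, transcript lengths, overlaps, pseudogenes and coding sequences are from GENCODE 44, and promoter sequences from RefSeq (GRCh38.p14). Protein sequences were not analysed here, and some genes of one-carbon metabolism are not reported here. Tables and figures used Python 3.11.15, pandas 2.3.3, NumPy 2.4.6 and matplotlib 3.10.9.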

Additional observations from a re-analysis of the deposited data

How the results depend on the processing

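MTHFD2 was called higher under all 11 alternatives, 7 with all libraries and 4 with 1 library left out, in which the lone library is assumed to vary like the others. The count of members called lower fell from 1 to 0 with library size alone, upper quartile, limma-voom and DESeq2, and was 0 to 1 when each library was left out. The count called higher was 2, but 1 with DESeq2 and 1 to 2 when each library was left out. The other genes of one-carbon metabolism called higher went from 3 to 6 with library size alone, and to 1 to 3 when each library was left out. All genes called numbered 2748, 1764 with DESeq2 and 1617 to 2599 when each library was left out. No member that changed sign was called in any of these analyses. PSAT1 was at 0.014 with library size alone. Leaving out each library gave SHMT2 -0.059 to 0.087, MTHFD2L -0.216 to 0.064 and ALDH1L2 -0.202 to 0.033. The log2 difference in the SHMT2:SHMT1 ratio was -0.265 to 0.0045.

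Lower genes made up 58.0% of all calls, against 35.8% with library size alone (2081 higher and 1158 lower), which moved the median of all tested genes to 0.09, 50.8% with upper quartile and 51.3% with limma-voom. Same-numbered libraries hardly deviated together (correlation 0.0257), so the numbers were taken as names only. With the replicate number as a block (replicate block), 3222 genes, 2 members higher, 1 member lower, and 4 higher and 8 lower of the other one-carbon genes were called, and the adjusted p of MTHFD2 was 0.0002, that of PSPH 0.0259 and that of MTHFD1 0.0147. Depth limited MTHFD2L most, with 119 to 207 counts per library.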
